A study of Mus musculus with 6 samples.

Results

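The hepatic mRNAs of 4 flavin-containing monooxygenases (*Fmo1*, *Fmo2*, *Fmo4* and *Fmo5*) and 2 aldehyde oxidases (*Aox1* and *Aox3*) were compared between g*Spns1*-cKO and control mice. The genes were taken by symbol, 6 of the 54532 genes listed, and all 6 passed the filter on low counts, which left 15449 genes for testing. FMOs are flavoproteins of the endoplasmic reticulum membrane that use NADPH and oxygen to oxygenate soft nitrogen and sulfur atoms in drugs, food-derived amines and sulfur metabolites. Aldehyde oxidases are cytosolic enzymes that carry a molybdenum cofactor, iron-sulfur clusters and FAD, and they oxidize aldehydes and nitrogen-containing rings, among them N-methylnicotinamide and many drugs. Both families are most active in liver, and several of their members are known to differ between male and female adult mouse liver.

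RNA was poly-A selected from whole liver of 3 g*Spns1*-cKO and 3 control mice on the C57BL/6 background, 1 library per mouse. The g*Spns1*-cKO animals were *Spns1* fl/fl mice with Rosa26Cre-ERT2, a tamoxifen-dependent Cre expressed in the whole body, and received tamoxifen by i.p. injection before weaning, which removes exon 3 of *Spns1*, the gene of a lysosomal lysolipid transporter. The methods describe the controls as *Spns1* fl/fl littermates, the labels call them WT, and whether controls were injected, the sex of the animals and their age at collection were not given in the sources used here. Because Cre goes with the deletion, its part in any difference cannot be told apart from that of *Spns1*. The libraries held between 30350002 and 35295611 counts in controls and from 31110374 to 33780883 in g*Spns1*-cKO mice, with TMM factors of 0.834 to 0.873 and 1.16 to 1.18, so the composition of the libraries differed between the groups. All levels below are CPM, that is counts over the TMM-scaled size of the library, unless stated otherwise. *Spns1* had 1008, 1562 and 875 counts in controls and 642, 1175 and 698 in g*Spns1*-cKO livers, with every g*Spns1*-cKO liver below every control in CPM and a log2 fold change of −0.87 (SE 0.25, adjusted p = 0.0300, edgeR quasi-likelihood test with Benjamini-Hochberg adjustment). The call of *Spns1* was lost without control liver 2 (adjusted p = 0.0785), without g*Spns1*-cKO liver 1 or 3 (0.0910 and 0.0830), with upper-quartile scaling (0.0635) and with library size only (0.213). It was kept with the tests of DESeq2 (adjusted p = 0.00109) and limma-voom (adjusted p = 0.0123). Counts are given per gene, so the deletion of the exon itself was not visible. At the protein level, the paper reports a reduced SPNS1 band by Western blot in g*Spns1*-cKO livers.

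Of the 6 genes, *Fmo1* and *Fmo2* were higher and *Aox1* and *Aox3* were lower in g*Spns1*-cKO livers, while *Fmo4* and *Fmo5* did not pass the threshold of 0.05 on the adjusted p. Of all genes tested, 21.3% passed the same threshold as higher and 20.5% as lower, so a change as such did not set these genes apart. Ranked by log2 fold change among the 15449 genes, *Fmo2* stood at position 359 from the highest and *Aox3* at position 333 from the lowest. In size, 3.59% of the genes lay at least as far from no change as *Fmo2* and 7.45% as *Aox3*, against 32.6% for *Fmo1* and 31.6% for *Aox1*. The median log2 fold change of the 6 genes was 0.062 beside 0.014 for all genes.

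Of the 6 genes, 5 lie on chromosome 1 (GRCm38, the mm10 build), in an *Aox* and an *Fmo* group. *Aox1* (ENSMUSG00000063558) occupies chr1:58029931-58106413 and *Aox3* (ENSMUSG00000064294) follows it at chr1:58113130-58200698, both on the plus strand. On the minus strand, *Fmo4* (ENSMUSG00000026692) lies at chr1:162793188-162813972, *Fmo1* (ENSMUSG00000040181) at chr1:162829561-162866610 and *Fmo2* (ENSMUSG00000040170) at chr1:162874317-162898726. *Fmo5* (ENSMUSG00000028088) lies apart from them at chr3:97628804-97655282, on the plus strand.

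The promoters of *Fmo2*, *Aox1* and *Aox3* are printed here, the genes with an entry in the promoter table among the 4 that passed the test. *Fmo1* has no entry. They are taken from RefSeq (GRCm38.p6) and run from 250 bases before to 50 bases after the start, 5′ to 3′ on the strand of the gene. Capitals mark matches, on either strand, to any of 6 motifs, namely TATAAA (the TATA box), GTTAAT (part of the HNF1 site), TTGCNNAA (C/EBP), GCGTG (core of the AHR element), TGACNNNGC (antioxidant element) and TTCNNNGAA (STAT5). The *Fmo2* window is chr1:162898709-162899008, the *Aox1* window chr1:58029719-58030018 and the *Aox3* window chr1:58112886-58113185.
Fmo2: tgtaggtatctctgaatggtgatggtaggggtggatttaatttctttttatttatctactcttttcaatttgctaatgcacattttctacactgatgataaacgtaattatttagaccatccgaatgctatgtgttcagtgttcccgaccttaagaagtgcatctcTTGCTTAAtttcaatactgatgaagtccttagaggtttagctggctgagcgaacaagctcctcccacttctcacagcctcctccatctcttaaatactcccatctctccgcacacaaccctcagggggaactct
Aox1: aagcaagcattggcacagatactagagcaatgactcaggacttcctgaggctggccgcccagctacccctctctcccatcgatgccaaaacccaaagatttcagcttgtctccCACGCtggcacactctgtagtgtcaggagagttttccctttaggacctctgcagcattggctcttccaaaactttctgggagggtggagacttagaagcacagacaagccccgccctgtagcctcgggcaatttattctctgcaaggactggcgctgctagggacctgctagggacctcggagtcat
Aox3: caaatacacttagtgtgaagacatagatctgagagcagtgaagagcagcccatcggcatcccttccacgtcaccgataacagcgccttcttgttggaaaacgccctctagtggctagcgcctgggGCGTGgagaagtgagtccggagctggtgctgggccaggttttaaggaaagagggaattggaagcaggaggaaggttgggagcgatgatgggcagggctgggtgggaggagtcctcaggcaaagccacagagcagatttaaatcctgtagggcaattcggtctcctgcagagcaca
The *Fmo2* promoter held 1 match, a C/EBP motif at −84 from the start. Both *Aox* promoters held a single GCGTG, at −137 in *Aox1* (read on the opposite strand) and at −125 in *Aox3*. No matches overlapped. Of 32851 mouse promoters of the same length, 10.8% held TTGCNNAA and 32.4% held GCGTG, so both motifs are common. The table gave 6 windows for 5 of the genes, with 2 for *Fmo2*. TATAAA was found in 1 of the 6 windows (*Fmo5*, at −195; 13.6% of all promoters), TTGCNNAA in the 2 windows of *Fmo2* and TTCNNNGAA in the other *Fmo2* window (8.3% of all promoters). GTTAAT and TGACNNNGC (7.1% and 12.4% of all promoters) were found in 0 of the 6. Such matches describe the letters of the window and do not show binding.

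*Fmo1*, a broad-specificity FMO that in rodents is a main hepatic form and that also converts hypotaurine to taurine, had 4931, 3804 and 4255 counts in controls and 8727, 8871 and 10994 in g*Spns1*-cKO livers. In CPM these were 175, 124 and 168 against 243, 231 and 280. All 3 g*Spns1*-cKO livers lay above all 3 controls, and the mean rose from 155.7 ± 28.1 to 251 ± 25.3 CPM (SD, n = 3 each). The log2 fold change was 0.69 (SE 0.15, adjusted p = 0.00514, edgeR).

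*Fmo2*, best known as the FMO of lung, was the member with the largest fold change and the largest standard error. Its counts were 383, 547 and 254 in controls and 1264, 4379 and 3302 in g*Spns1*-cKO livers, which is 13.6, 17.8 and 10.04 CPM against 35.1, 114 and 84.0 CPM. The groups did not overlap, but g*Spns1*-cKO liver 1 lay well below the other two, whose mean was 2.82 times its level. The mean rose from 13.8 ± 3.87 to 77.8 ± 39.9 CPM (SD, n = 3 each), with a log2 fold change of 2.49 (SE 0.52, adjusted p = 0.0168, edgeR). The call was lost when either of 2 livers was left out, with a log2 fold change close to that of all livers. The adjusted p was 0.0617 without control liver 1 (log2 fold change 2.47) and 0.0632 without g*Spns1*-cKO liver 3 (2.43). Since *Fmo2* is a lung gene, lung markers were read in the same libraries. The surfactant gene *Sftpc* had 0 counts in all 6 libraries, *Sftpb* had 5 counts in control liver 3, *Scgb1a1* had 1 count in control liver 1, and all 3 were at 0 in every g*Spns1*-cKO liver.

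*Fmo4*, a weakly expressed FMO with few known substrates, had 465, 361 and 273 counts in controls and 630, 704 and 611 in g*Spns1*-cKO livers. In CPM these were 16.5, 11.7 and 10.8 against 17.5, 18.3 and 15.5, so that control liver 1 lay above g*Spns1*-cKO liver 3. The mean was 13.0 ± 3.09 CPM in controls and 17.1 ± 1.44 CPM in g*Spns1*-cKO mice (SD, n = 3 each), and the log2 fold change of 0.40 (SE 0.17, adjusted p = 0.0784, edgeR) did not pass. It passed without control liver 1 (0.59, adjusted p = 0.0109), with upper-quartile scaling (0.52, adjusted p = 0.0322), with library size only (0.84, adjusted p = 0.00239) and with a looser filter on low counts (0.39, adjusted p = 0.0350).

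*Fmo5*, which inserts oxygen into ketones rather than onto nitrogen or sulfur, was by far the most abundant of the FMO mRNAs. Its counts were 24881, 26760 and 29804 in controls and 25034, 32621 and 34661 in g*Spns1*-cKO livers, or 885, 869 and 1178 against 696, 850 and 882 CPM. The groups overlapped, since g*Spns1*-cKO liver 3 lay above control liver 2. The mean was 977 ± 174 CPM in controls and 809 ± 99.5 CPM in g*Spns1*-cKO mice (SD, n = 3 each), a log2 fold change of −0.27 (SE 0.17, adjusted p = 0.227, edgeR). Its sign depended on the scaling, with 0.18 (adjusted p = 0.384) for library size only.

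*Aox3*, the main aldehyde oxidase of mouse liver, had the largest fall. It had 15418, 13993 and 14409 counts in controls and 6526, 5115 and 4848 in g*Spns1*-cKO livers, which is 548, 454 and 569 CPM against 181, 133 and 123 CPM. Every g*Spns1*-cKO liver was far below every control. The mean fell from 524 ± 61.2 to 146 ± 31.1 CPM (SD, n = 3 each), with a log2 fold change of −1.84 (SE 0.17, adjusted p = 4.47e-05, edgeR), and this call held under each scaling, filter and test tried and without each liver in turn.

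*Aox1*, the member that is also widely expressed outside the liver, had 2483, 2115 and 1965 counts in controls and 1917, 1439 and 2074 in g*Spns1*-cKO livers. The raw counts overlapped, whereas in CPM the values were 88.3, 68.7 and 77.6 against 53.3, 37.5 and 52.8 with no overlap. The mean fell from 78.2 ± 9.83 to 47.9 ± 8.96 CPM (SD, n = 3 each), a log2 fold change of −0.71 (SE 0.15, adjusted p = 0.00449, edgeR). With library size only the difference was −0.27 (adjusted p = 0.154), so that the call of *Aox1* rested on scaling for library composition. That setting put the median over all tested genes at 0.46, and upper-quartile scaling put it at 0.14, so that *Aox1* was below the median gene under each of them.

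**Figure D1:**
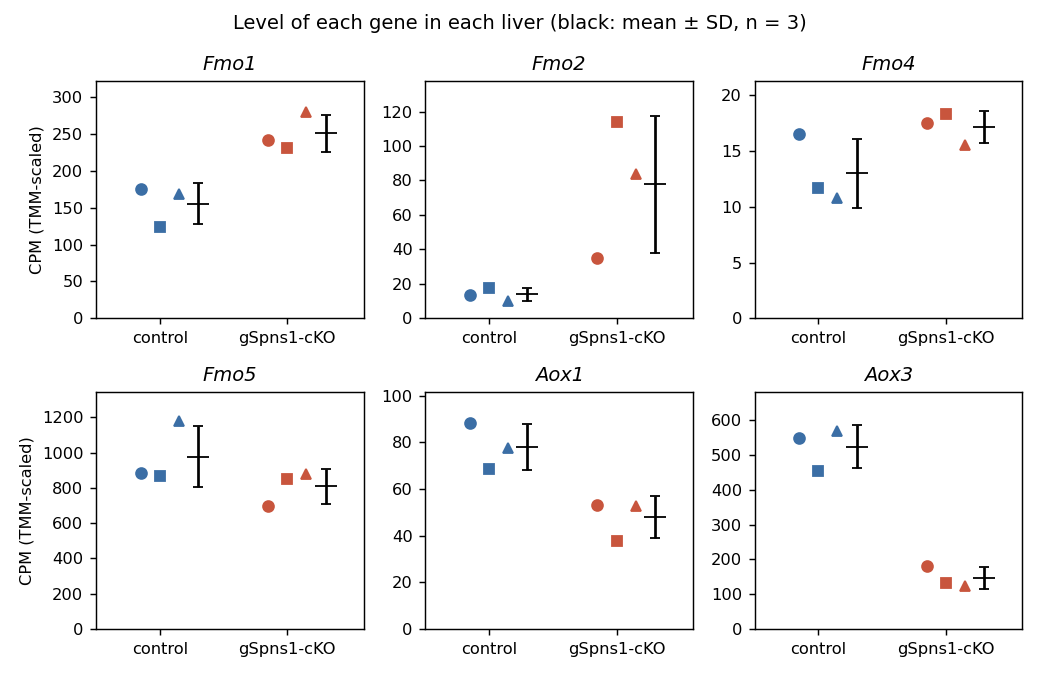
Level of each gene (y axis, TMM-scaled CPM, from 0) in the 3 control and 3 g*Spns1*-cKO livers (circle, square and triangle for replicates 1, 2 and 3), with the mean ± SD in black. The groups are apart for *Fmo1*, *Fmo2*, *Aox1* and *Aox3* and overlap for *Fmo4* and *Fmo5*, and *Fmo2* has its lowest g*Spns1*-cKO value, 35.1 CPM, in liver 1.

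Every g*Spns1*-cKO liver lay above every control for 2 of the 6 genes and below for another 2, beside 27.1% and 26.9% of all genes tested. An exact permutation test (two-sided, 3 against 3) gave its smallest possible p, 0.1, for each of these 4 genes and 0.2 for *Fmo4* and *Fmo5*, so single-gene permutation tests cannot reach 0.05 in this design.

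**Figure D2:**
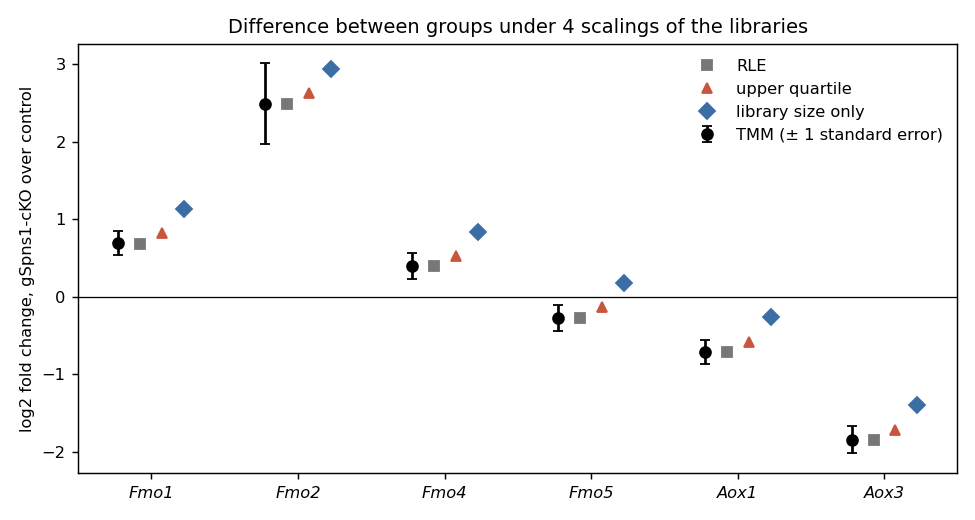
log2 fold change of g*Spns1*-cKO over control (y axis) for each gene under TMM (black, ± 1 standard error), RLE, upper-quartile and library-size scaling. *Fmo1* and *Fmo2* stay above 0 and *Aox1* and *Aox3* below 0 under all 4, whereas *Fmo5* goes from −0.27 under TMM to 0.18 with library size only.

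Differences between the genes inside a library do not depend on that scaling. Per kilobase of gene length, *Aox3* was 7.67, 8.17 and 9.06 times the level of *Aox1* in the control livers and 4.21, 4.39 and 2.89 times in the g*Spns1*-cKO livers, so the gap between the oxidases was narrower in every g*Spns1*-cKO liver. The log2 ratio of *Aox1* to *Aox3* differed by 1.14 (SE 0.20) between the groups, which did not overlap. Among the FMOs, the log2 ratio of *Fmo1* to *Fmo5* was higher by 0.97 (SE 0.19) and that of *Fmo2* to *Fmo5* by 2.64 (SE 0.56) in g*Spns1*-cKO livers, both with no overlap, while that of *Fmo4* to *Fmo5* was 0.68 (SE 0.33) higher on average with overlapping groups. Across the families, *Fmo1* was 0.357, 0.303 and 0.329 times *Aox3* in controls and 1.49, 1.93 and 2.53 times in g*Spns1*-cKO livers, so their order was opposite in the groups in every animal. *Fmo5* was 2.00, 2.37 and 2.56 times *Aox3* in controls and 4.75, 7.90 and 8.86 times in g*Spns1*-cKO livers. These are 6 ratios in all. The exact permutation p was 0.1 for 5 of them and 0.2 for *Fmo4* to *Fmo5*, or 0.12 and 0.2 after Benjamini-Hochberg adjustment over the 6.

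Levels can be compared between genes only per length, as TMM-scaled RPKM (CPM divided by the gene length in kilobases). In controls the order was *Fmo5* (172 ± 30.6 RPKM), *Aox3* (74.5 ± 8.71), *Fmo1* (24.7 ± 4.45), *Aox1* (9.001 ± 1.13), *Fmo4* (3.51 ± 0.83) and *Fmo2* (2.46 ± 0.69; SD, n = 3 each). Only the last pair overlapped, with *Fmo4* between 2.91 and 4.46 RPKM and *Fmo2* between 1.79 and 3.17 RPKM. In g*Spns1*-cKO livers the order was *Fmo5* (142.6 ± 17.5 RPKM), *Fmo1* (39.8 ± 4.02), *Aox3* (20.8 ± 4.42), *Fmo2* (13.9 ± 7.11), *Aox1* (5.51 ± 1.03) and *Fmo4* (4.62 ± 0.39). There *Fmo2* (6.26 to 20.3 RPKM) overlapped *Aox3* (17.5 to 25.8 RPKM), and *Aox1* (4.32 to 6.13 RPKM) overlapped *Fmo4* (4.19 to 4.95 RPKM).

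The makeup of each family differed between the groups. *Fmo5* made up 81.8%, 85.5% and 86.9% of the summed RPKM of the 4 FMOs in controls and 71.3%, 70.7% and 71.0% in g*Spns1*-cKO livers. *Fmo1* went from 14.6%, 10.9% and 11.2% to 22.4%, 17.3% and 20.3%, and *Fmo2* from 1.27%, 1.77% and 0.749% to 3.64%, 9.61% and 6.84%. The share of *Fmo4* overlapped, with 2.34%, 1.77% and 1.22% against 2.75%, 2.34% and 1.92%. *Aox1* supplied 11.5%, 10.9% and 9.94% of the summed RPKM of the 2 oxidases in controls and 19.2%, 18.5% and 25.7% in g*Spns1*-cKO livers. Shares within a family are not independent of each other, and they carry no test of their own beyond the ratios above.

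**Figure D3:**
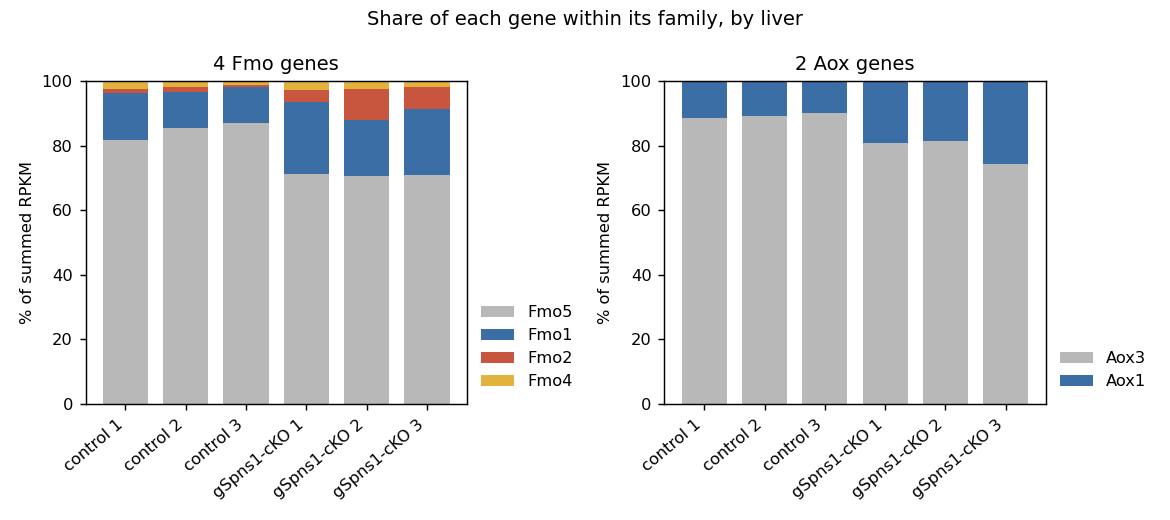
Share of each gene in the summed RPKM of its family (y axis, %, stacked to 100) in each of the 6 livers, for the 4 FMOs (left) and the 2 aldehyde oxidases (right). *Fmo5* takes 81.8% to 86.9% in controls and 70.7% to 71.3% in g*Spns1*-cKO livers, and *Aox3* falls from at least 88.5% to at most 81.5%.

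Summed over the 4 FMOs, the level was 190.65, 179 and 239 RPKM in controls and 172, 212 and 219 RPKM in g*Spns1*-cKO livers, with means of 203 ± 31.7 and 201 ± 25.2 RPKM (SD, n = 3 each). The log2 ratio of the means was −0.014 (exact permutation p = 1), and its sign changed with the scaling and with the liver left out. The summed *Aox* level was 88.1, 72.5 and 89.9 RPKM in controls and 31.9, 23.3 and 23.6 RPKM in g*Spns1*-cKO livers. Its mean went from 83.5 ± 9.57 to 26.3 ± 4.90 RPKM (SD, n = 3 each), a log2 ratio of −1.67 with no overlap (exact permutation p = 0.1, the smallest possible).

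Among other genes of both families, 5 relatives had few counts or did not pass. *Fmo6* had 1, 0 and 0 counts against 3, 5 and 3, *Fmo9* had 0 in all libraries, *Aox2* had 3, 7 and 6 counts against 8, 9 and 9, and *Aox4* had 1 count in a single library (g*Spns1*-cKO liver 3). None of these 4 passed the filter on low counts. *Xdh*, which encodes the related molybdenum enzyme xanthine dehydrogenase, had 3440, 3813 and 3569 counts in controls and 4413, 5603 and 5516 in g*Spns1*-cKO livers, with a log2 fold change of 0.079 (SE 0.12, adjusted p = 0.620, edgeR). Thus 0 of the 5 passed in either direction, with 1 of them tested.

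The nearest tested genes outside the *Fmo* and *Aox* groups were looked up after these values were seen, 2 on a side and on the *Fmo4* side only for the chromosome 1 FMOs. Beyond *Fmo4*, the log2 fold change was 0.62 for *Prrc2c* (adjusted p = 0.00162, edgeR) and 0.14 for *Vamp4* (adjusted p = 0.415). While *Aox1* and *Aox3* both fell, none of their 4 neighbours was lower, with 0.22 for *Kctd18* (adjusted p = 0.292, edgeR), 1.61 for *Spats2l* (adjusted p = 0.00368), 1.34 for *Gm37607* (adjusted p = 0.0457) and 0.31 for *Bzw1* (adjusted p = 0.0524). Beside *Fmo5*, *Prkab2* had 0.75 (adjusted p = 0.0159, edgeR), and *Chd1l*, *Gm43075* and *Pde4dip* had −0.088, 0.10 and −0.11 (adjusted p of 0.585, 0.887 and 0.514).

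Several genes that differ between male and female mouse liver moved in these livers. All 10 genes of a list of male-biased liver genes were lower in every g*Spns1*-cKO liver than in every control, 7 of them past the test and 0 as higher, with a median log2 fold change of −4.67. Among all genes tested, 26.9% were lower in every g*Spns1*-cKO liver, 20.5% passed as lower and 21.3% as higher. *Hsd3b5*, a steroid dehydrogenase, went from 7088, 5249 and 2910 counts to 6, 2 and 2 (log2 fold change −10.93, adjusted p = 3.82e-05, edgeR), and the smallest fall of the list was that of *Cyp2d9* (−1.85, adjusted p = 0.000117). Of 10 female-biased genes, 6 were tested and 3 passed, all higher, with a median of 5.56. That count was 5 without g*Spns1*-cKO liver 1 and 1 without control liver 1 or 2 or without g*Spns1*-cKO liver 2 or 3. *Cyp2b9* went from 5, 4 and 22 counts to 143, 8277 and 7057 (log2 fold change 8.47, adjusted p = 0.0386, edgeR), a call that was kept without g*Spns1*-cKO liver 1 and lost without any of the other livers, and *Acot3* had −0.43 (adjusted p = 0.780). Like *Fmo2*, the summed female-biased genes without *Acot3* were lowest in g*Spns1*-cKO liver 1 within its group, with 12.5 CPM against 360 and 297, and 0.552 to 2.56 CPM in controls. With *Acot3* the sum was 13.9 CPM in that liver, against 384 and 309. That value lay inside the control range of 11.6 to 29.0 CPM. *Cyp3a16*, also of this list, went the other way, with 2.31 CPM in g*Spns1*-cKO liver 1 against 0.912 and 0.0763. *Aox3* was highest in that liver within its group, at 1.41 times the mean of the other two, and so were the summed male-biased genes, at 1935 CPM. The same ratio was 0.35 for *Fmo2*, 0.95 for *Fmo1*, 1.03 for *Fmo4*, 0.80 for *Fmo5* and 1.18 for *Aox1*. Of the sex chromosome genes, *Xist* had at most 5 counts and the Y-linked *Ddx3y* at least 1731 in every library, the pattern of male animals in both groups. Of 4 such genes tested, 1 was higher (*Kdm5d*, 0.47, adjusted p = 0.0149, edgeR), and not so without control liver 2 or g*Spns1*-cKO liver 3 (adjusted p = 0.0557 and 0.0630), while *Ddx3y* had −0.057, *Uty* 0.19 and *Eif2s3y* 0.10, with adjusted p of 0.725, 0.246 and 0.634. The part of a sex-biased programme in the differences of the FMO and AOX genes was not tested.

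**Figure D4:**
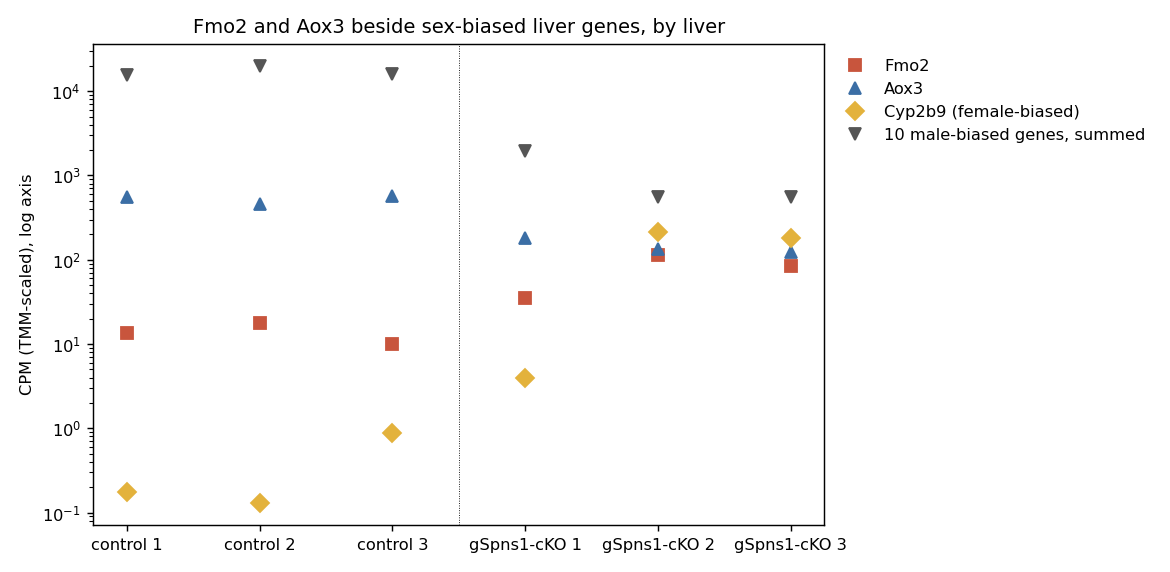
Level (y axis, TMM-scaled CPM, log axis) of *Fmo2*, *Aox3*, the female-biased *Cyp2b9* and the sum of 10 male-biased genes in each of the 6 livers. In g*Spns1*-cKO liver 1 the male-biased sum (1935 CPM) and *Aox3* (181 CPM) are the highest of their group and *Fmo2* (35.1 CPM) and *Cyp2b9* are the lowest. *Fmo1*, *Fmo4*, *Fmo5* and *Aox1* are not shown.

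Genes of cofactors, of neighbouring redox enzymes and of substrates were read as lists, beside the 20.5% of all genes tested that were lower and the 21.3% that were higher. Aldehyde oxidases need the molybdenum cofactor, and of 8 genes for its synthesis and for other molybdenum enzymes 4 were lower and 0 higher (median log2 fold change −0.50). They were *Mocs1* and *Gphn* of cofactor synthesis, with −0.88 and −0.72, and the enzymes *Suox* (sulfite oxidase, −1.11, adjusted p = 0.000695) and *Marc1* (−1.07), and the highest value of the list was that of *Mocs3*, −0.16 (adjusted p = 0.486, edgeR). *Mocos*, *Mocs2* and *Marc2* did not pass either, with −0.23, −0.28 and −0.27 (adjusted p of 0.386, 0.0552 and 0.103, edgeR). Both families carry FAD. Of 5 genes of riboflavin and FAD supply 1 was lower, close to the share of all genes, and 0 were higher. The lower gene was the FAD synthase gene *Flad1* (−0.60, adjusted p = 0.00171, edgeR). The others were *Slc52a2* at −0.023, *Slc52a3* at 0.39, *Rfk* at 0.080 and *Slc25a32* at −0.091 (list median −0.023). FMOs take electrons directly from NADPH, whereas cytochrome P450s and other enzymes of the microsomal and outer mitochondrial membranes use separate electron donors. Of 5 such electron donor genes 2 were lower, *Cyb5b* (−0.76, adjusted p = 0.00636) and *Cyb5r3* (−0.76, adjusted p = 0.0208, edgeR), and 0 higher, and *Por*, *Cyb5a* and *Cyb5r1* did not pass (−0.51, 0.14 and −0.18; list median −0.51).

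For substrates, the 10 genes listed under nicotinamide turnover had 6 lower and 1 higher (median −0.48), beside 20.5% and 21.3% of all genes tested. That list also holds genes of NAD synthesis from tryptophan and from nicotinic acid, so it is not confined to nicotinamide. *Nnmt*, whose product makes the aldehyde oxidase substrate N-methylnicotinamide, had the lowest value (−1.29, adjusted p = 0.0290, edgeR), and *Nampt*, of NAD salvage, was the gene that rose (0.44, adjusted p = 0.0233). In the route from cysteine to taurine, whose last step FMO1 can carry out, 4 of 5 genes were tested. *Csad* was lower (−1.42, adjusted p = 0.0470, edgeR), the taurine transporter gene *Slc6a6* was higher (0.47, adjusted p = 0.00901), *Cdo1* and *Ado* had 0.34 and 0.19 without passing, and *Gadl1* was at 0 (list median 0.27). Of 14 transcription factors of hepatic drug metabolism 6 were lower and 2 higher (median −0.34), with *Cebpa* lowest (−1.41, adjusted p = 0.000213, edgeR) and *Foxa2* highest (0.49, adjusted p = 0.0236). Calls near the threshold did not all hold with 1 liver fewer: *Nampt*, *Nnmt*, *Csad*, *Foxa2* and *Cyb5r3* each lost theirs when any of 3 or 4 of the livers was left out. *Slc6a6* lost its call without g*Spns1*-cKO liver 3, and the adjusted p of these runs lay between 0.0548 and 0.136. For *Nnmt* the log2 fold change in those runs was −1.43 to −1.07, on both sides of the −1.29 with all livers. Without g*Spns1*-cKO liver 2, 3 of the 10 nicotinamide genes were lower.

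Whole liver holds several cell types, and in such samples fewer cells of a type and less RNA per cell cannot be told apart. Over all genes tested, 20.5% were lower and 21.3% higher. Of 6 hepatocyte markers 4 were lower and 0 higher (*Alb* −0.73, adjusted p = 0.0101), with a sum of 95557 to 109789 CPM in controls and 57417 to 65901 CPM in g*Spns1*-cKO livers. Beside the log2 fold changes of *Aox1* (−0.71) and *Aox3* (−1.84), those of the 6 markers ran from −1.998 (*Serpina1c*) to 0.36 (*Cps1*, adjusted p = 0.1004, edgeR), the latter with every g*Spns1*-cKO liver above every control. Markers of other cells were higher: 7 of 7 for macrophages (*Cd5l* 1.79), 5 of 6 for endothelium (*Stab2* 1.19), 4 of 6 for stellate cells or fibroblasts (*Dcn* 1.57), 5 of 5 for cholangiocytes (*Spp1* 2.13) and 2 of 4 for lymphocytes (*Ptprc* 1.79), with 0 lower in each list. Their sums went from 179 to 290 CPM in controls to 682 to 995 CPM for macrophages, from 137 to 153 to 202 to 249 CPM for endothelium, from 150 to 174 to 434 to 480 CPM for stellate cells or fibroblasts, from 44.2 to 62.9 to 170 to 279 CPM for cholangiocytes and from 5.65 to 7.51 to 18.7 to 21.6 CPM for lymphocytes. Most of the cholangiocyte sum was *Spp1*, with 37.6 to 56.2 CPM in controls and 147 to 248 CPM in g*Spns1*-cKO livers. Of the zonal hepatocyte markers, 2 of 8 pericentral genes (*Cyp2e1* −0.83) and 5 of 6 periportal genes (*Pck1* −1.63) were lower and 0 of either were higher. The pericentral count of lower genes was close to the share of all genes. Leaving out single livers changed some of these counts, to 0 of 8 pericentral genes without control liver 1 or 3 or g*Spns1*-cKO liver 3, to 3 of 6 periportal genes without g*Spns1*-cKO liver 3 and to 2 of 6 stellate or fibroblast genes without control liver 3 or g*Spns1*-cKO liver 3. The part of these shifts in the values of the FMO and AOX genes was not tested.

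The genes whose log2 CPM followed each member most closely over the 6 livers were *U2surp* and *Ttc14* for *Fmo1* (Pearson r 0.9991 and 0.9966), *Tent5b* and *Tesc* for *Fmo2* (0.999 and 0.9973), *Gm28424* and *Layn* for *Fmo4* (0.9976 and 0.9943), *Kansl1* and *Cbfa2t3* for *Fmo5* (0.9882 and 0.9876), *Adipor2* and *Irf2* for *Aox1* (0.9961 and 0.9937), and *Umad1* and *Inca1* for *Aox3* (0.9994 and 0.9985). These are the closest of 15449 genes over 6 points that fall into 2 groups and share library scaling, and they are given as a description.

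The exons of the 6 genes overlapped those of no other annotated gene, and the share of 50-base stretches of their transcripts found in transcripts of another gene was 7.02% for *Fmo1*, 0.434% for *Fmo5*, 0.612% for *Aox1* and 0 for *Fmo2*, *Fmo4* and *Aox3*.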

How the data were processed

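Liver RNA-Seq libraries of 6 mice were grouped by the sample labels. Per the labels, reads were processed with fastp, HISAT2 2.0.5 and featureCounts 1.5.0-p3 on mm10, and the strand setting and annotation release were not given in the sources used here. The authors deposited raw counts per gene and FPKM values (counts divided by gene length and a library total). The authors' group comparison in the same table, namely a signal per group, a log2 fold change, and a raw and an adjusted p-value, was not used. The counts entered all tests. Of 54532 listed genes, 54409 were found in GENCODE M21 (GRCm38), 98.33% of them at the same start and end.

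Counts were tested in R 4.3.3 with edgeR 4.0.16 (filterByExpr, TMM, glmQLFit with the robust setting, glmQLFTest) and Benjamini-Hochberg adjustment over 15449 genes. The SE of a log2 fold change is its size over the square root of F. RPKM were computed from TMM-scaled counts and the deposited gene lengths. A floor of 3 counts corresponded to 0.0974 to 0.119 CPM in controls and 0.0763 to 0.0834 CPM in g*Spns1*-cKO libraries, and covers counting error only. No libraries of a group agreed within sampling noise (chi-square per gene 41.1 to 122). Each library comes from 1 mouse, and p-values measure the spread between these animals. Scripts were tested on simulated data with as many planted rises as falls, which lacked the difference in library composition between these groups.

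The genes studied and the gene lists were chosen with earlier results of these data known. Named from each list were the genes with the highest and lowest log2 fold change, or all genes of lists of up to 5, the most abundant gene of each marker list, and the 2 genes most like each gene studied (log2 CPM, prior count 2). *Mocs1*, *Mocs2*, *Mocos*, *Gphn*, *Cps1*, *Serpina1c*, *Marc1*, *Marc2*, *Cyp3a16*, *Sftpb*, *Sftpc*, *Scgb1a1* and *Xist* and the neighbouring genes were named after their values were seen. Alternatives were RLE, upper-quartile and library-size scaling, looser and stricter filters on low counts (1 in any library or 10 in every library), DESeq2 1.42.0, limma-voom (limma 3.58.1), a replicate block, a threshold of 0.01 and leaving out each liver. A gene that the naming rule selects is not reported here.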

Additional observations from a re-analysis of the deposited data

How the results depend on the processing

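The calls of *Fmo1* (0.54 to 0.77 without single livers) and *Aox3* (−2.03 to −1.74) held under every alternative run. *Fmo2* ranged from 2.11 to 2.84 without single livers and lost its call without control liver 1 or g*Spns1*-cKO liver 3, *Fmo4* ranged from 0.27 to 0.59, *Fmo5* from −0.36 to −0.13 and *Aox1* from −0.80 to −0.56. With library size only, *Aox1* was not called (−0.27), *Fmo4* was (0.84) and *Fmo5* changed sign (0.18). *Fmo4* was also called with upper-quartile scaling (0.52) and with at least 1 count in any library (0.39). Library size only, which moves the median of all genes to 0.46, called 7289 genes as higher and 970 as lower, and an adjusted p under 0.01 called 1983 and 1907. Without single livers 2365 to 3213 genes were higher and 2125 to 3216 lower. Of the 6 genes, 1 was lower with library size only, 1 was higher at 0.01 (*Fmo1*), and without single livers 1 to 2 were higher (1 without g*Spns1*-cKO liver 3) and 2 lower. DESeq2, limma-voom and RLE scaling changed none of the 6 calls.

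The summed *Fmo* level changed sign with library size only (0.43) and upper-quartile scaling (0.12) and without single livers (−0.096 to 0.12). The summed *Aox* level was −1.22 with library size only and −1.54 with upper-quartile scaling, and ranged from −1.83 to −1.59 without single livers. The 6 ratios kept their sign without single livers, the only runs that could change them.

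Library size only called 7289 genes as higher and 970 as lower, so the list counts of that setting are read beside this shift. The counts higher and lower were 3 and 0 for cysteine to taurine and 1 and 0 for electron donors. They were 2 and 3 for nicotinamide turnover, 1 and 0 for riboflavin and FAD supply and 4 and 3 for transcription factors. Under the same setting 4 sex chromosome genes and 1 other family gene (*Xdh*) were higher. *Csad* was not called, leaving 0 lower, with upper-quartile scaling and with the filter of 1 count. With at least 10 counts in every library, which removes genes nearly silent in controls, 0 female-biased genes were higher, and limma-voom called 1 female-biased gene. Without single livers, counts ranged from 0 to 1 higher and 0 to 1 lower for cysteine to taurine, from 1 to 2 lower for electron donors, from 1 to 5 higher for female-biased genes, from 0 to 1 higher and 3 to 5 lower for nicotinamide turnover, from 0 to 1 higher for sex chromosome genes and from 0 to 2 higher and 4 to 7 lower for transcription factors.

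Genes without a call that changed sign with library size only were *Mocs3* (0.28), *Slc52a2* (0.42), *Slc25a32* (0.36), *Cyb5r1* (0.26), *Acot3* (0.034) and *Ddx3y* (0.39). Each of these values lay below the median gene of that setting (0.46). With upper-quartile scaling the sign changed for *Slc52a2* (0.10), *Slc25a32* (0.044) and *Ddx3y* (0.073), and with at least 10 counts in every library for *Slc52a2* (0.020). Without single livers these signs varied for *Slc52a2* (−0.17 to 0.19), *Slc25a32* (−0.23 to 0.047), *Acot3* (−1.30 to 0.13), *Ddx3y* (−0.17 to 0.0069) and *Eif2s3y* (−0.069 to 0.25).

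Groups share replicate numbers, and the deviations of same-numbered livers correlated by 0.037, 0.033 and −0.028. With 3 livers per group these values cannot decide whether the numbers pair littermates. With a replicate block, 3084 genes were higher and 3016 lower, and of the 6 genes 2 were higher and 2 lower, with *Fmo4* at 0.42 (adjusted p = 0.0506, edgeR). The cause of these changes was not tested. The 3 animals per group limit all of this: no permutation test can go below 0.1.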
